A study of Sus scrofa with 10 samples.

Results

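Cells that carried the neurogenic gene HES6 together with the patterning genes PAX3, PAX7, SHOX2 or DBX1 were described in the developing pig brain. They were selected in the raw counts of the libraries E50_1, E60_1 and E60_2, with each transcript counted by its unique molecular identifier (UMI). A cell was selected if NEUROG2, INSM1, HES6 and NHLH1 together had at least 2 UMIs, if PAX3, PAX7, SHOX2 and DBX1 together had at least 2 UMIs, if it had 0 UMIs of EOMES, and if NEUROD2 and NEUROD6 together had at most 1 UMI. This gave 309 of the 28229 cells of the series, or 309 of the 17156 cells of these 3 libraries, and they are called HES6+ patterned cells here. The cells were chosen by the levels of these 11 genes, which are given below as a description, without a test.

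The study profiled the medial entorhinal cortex (MEC), dissected by eye from fetal and adult pig brains, in 8 libraries of whole cells and 2 of nuclei. Crossbred fetuses of Danish Landrace/Yorkshire sows and Duroc boars were used, and the labels name no transgene or treatment. E50_1 held whole cells pooled from 3 brains at embryonic day 50. E60_1 and E60_2 held whole cells of 1 brain each at embryonic day 60. The tissue was taken apart with papain and captured with the 10X Genomics version 2 chemistry, and Cell Ranger counts on Sscrofa11.1 with introns included were deposited for each cell.

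PAX3 and PAX7 are paired-box transcription factors that give dorsal identity to the neural tube, and PAX7 is kept in the roof of the midbrain, the future superior colliculus. DBX1 is a homeobox gene of dividing ventricular zone progenitors, and SHOX2 is a homeobox gene of young neurons, among others in the thalamus and brain stem. HES6 is a transcription factor that counters the Notch effector HES1 and is switched on by proneural factors as progenitors leave the cell cycle. In the cerebral cortex, by contrast, neuronal intermediate progenitors are known by EOMES, and young excitatory neurons by NEUROD2 and NEUROD6.

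The cells were unevenly spread over the libraries. E50_1 held 230 HES6+ patterned cells among 5506 cells (4.18%, exact Clopper-Pearson 95% confidence interval, CI, 3.66 to 4.74). E60_2 held 76 among 3479 cells (2.18%, CI 1.72 to 2.73) and E60_1 held 3 among 8171 cells (0.0367%, CI 0.00757 to 0.107). E60_1 thus lay far below E60_2 although both came from day 60, and with 1 library at day 50 no difference between the stages was tested. The rule also took 2 of the 129 microglia of E50_1 (1.55%, CI 0.188 to 5.49) and 6 of the 441 microglia of E60_2 (1.36%, CI 0.501 to 2.94), which are cells with at least 5 UMIs of AIF1 and CSF1R and should hold these genes as free RNA only. In E60_2 the share of all cells thus lay inside the interval of this background. These microglia were not removed from the HES6+ patterned cells. All intervals on shares and levels cover counting error only, since cells of 1 library are not replicates.

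When the same rule was applied to the other libraries, it found 3 of 493 cells in E70_1 and 1 of 617 cells in E70_2. It found 0 of 2696 cells in E60_3, which allows a share of up to 0.111%, and 0 of 3120 cells in E70_3, which allows up to 0.0962%. It found 0 of 737 cells in Adult_1, which allows up to 0.407%. These limits are for cells that pass the rule at the depth of each library, not for cells that express the genes. The nuclei had 0 of 858 in E70_nc and 0 of 2552 in Adult_nc, but with a median of 2616 and 690 UMIs they were too shallow for the rule to set a limit. When the cells of E50_1 and E60_2 were thinned to 3000 UMIs each, 44 and 16 cells passed. Nearly all of the HES6+ patterned cells thus came from 2 libraries and at most 4 brains.

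The criteria took different numbers of cells in these libraries. In E50_1, 553 cells (10.0%) had at least 2 UMIs of the 4 patterning genes, and 41.6% of these were HES6+ patterned cells (CI 37.4 to 45.8). In E60_2, 867 cells (24.9%) passed the same patterning criterion, but 8.77% of them were HES6+ patterned cells (CI 6.97 to 10.8). Read from the side of HES6, they made up 21.7% of the 1061 cells of E50_1 with at least 2 UMIs of the neurogenic genes, and were 76 of the 149 such cells of E60_2. In E60_1, 128 cells (1.57%) passed the patterning criterion and 93 the neurogenic one. Free RNA and depth differed with these shares. At least 2 UMIs of the patterning genes were found in 2.33% of microglia in E50_1 and in 14.7% in E60_2 (65 of 441), where the sum of the genes was 19.7 and 102 CPM. At 3000 UMIs per cell the HES6+ patterned share of the cells that passed the patterning criterion was 16.7% in E50_1 (CI 12.4 to 21.7) and 3.70% in E60_2 (CI 2.13 to 5.93). No difference between the libraries is read from these shares.

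HES6, on chromosome 15 of Sscrofa11.1 from 137785808 to 137787689, carried the neurogenic criterion by itself. It had 16585 UMIs over the 10 libraries, whereas NEUROG2 had 9 UMIs, INSM1 had 2 and NHLH1 had 1. All 309 cells had at least 2 UMIs of HES6 alone, and none had a UMI of the other 3 genes. These 3 genes were near 0 in every class, with NEUROG2 in 0.917% and INSM1 in 0% of the EOMES progenitors of E50_1 (HES6+ cells with EOMES), a type known to express both. Whether they were counted properly was not tested, and their zeros do not show that the cells lack them. The HES6 levels were 403 CPM (UMIs of the gene scaled to 1000000 UMIs) in the summed cells of E50_1 (exact Poisson 95% CI 379 to 427), 335 CPM in E60_2 (CI 289 to 386) and 480 CPM from 7 UMIs in E60_1. In microglia HES6 was at 54.3 CPM in E50_1 and 25.4 CPM in E60_2, which shows the RNA found in droplets of a type that should lack the gene.

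PAX3 (chromosome 15, 124093803 to 124193041) was the most frequent of the patterning genes. It was found in 151 of 230 cells (65.7%) of E50_1 at 173 CPM and in 66 of 76 cells (86.8%) of E60_2 at 257 CPM. PAX7 (chromosome 6, 77160827 to 77268626) was found in 132 cells (57.4%) of E50_1 at 141 CPM and in 28 cells (36.8%) of E60_2 at 72.9 CPM. Microglia held 1.19 CPM of PAX3 and 10.7 CPM of PAX7 in E50_1. In E60_2 PAX3 had a UMI in 102 of 441 microglia (23.1%) and PAX7 was at 25.8 CPM. The free RNA was therefore closer to the level of the selected cells in E60_2.

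DBX1 (chromosome 2, 39229392 to 39234304) was found in 52 cells (22.6%) of E50_1 at 89.3 CPM and in 35 cells (46.1%) of E60_2 at 163 CPM, against 6.56 and 15.5 CPM in microglia. SHOX2 (chromosome 13, 97879586 to 97892276) was found in 45 cells (19.6%) of E50_1 at 52.1 CPM and in 8 cells of E60_2 from 15 UMIs, against 1.19 and 1.10 CPM in microglia. The 3 cells of E60_1 had SHOX2 and none of the other patterning genes, with 11 UMIs in all.

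**Figure D1:**
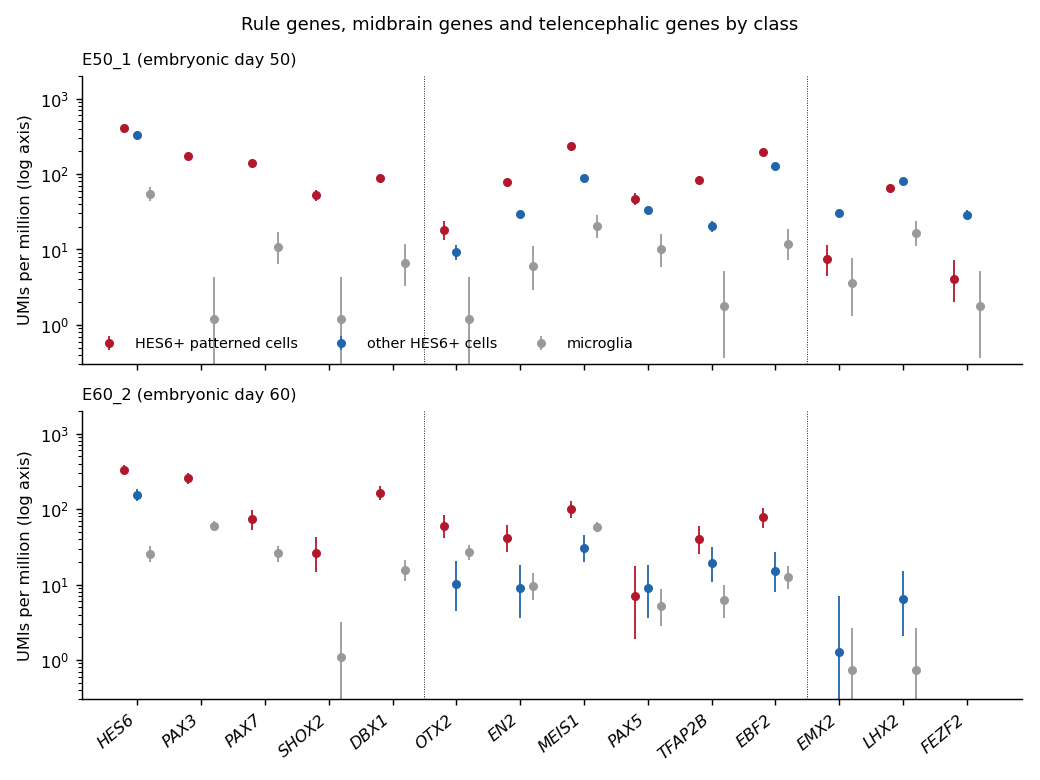
CPM (log axis) of the rule genes, of midbrain genes and of telencephalic genes in HES6+ patterned cells, other HES6+ cells and microglia of E50_1 and E60_2, with exact Poisson 95% intervals; a level of 0 is not drawn. PAX7 of microglia lay at 25.8 CPM in E60_2 and at 10.7 CPM in E50_1, and EMX2 of the HES6+ patterned cells was at 7.38 CPM in E50_1 and 0 in E60_2.

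Cells with both PAX genes were common. PAX3 or PAX7 was present in 200 of 230 cells (87.0%) of E50_1 and in 72 of 76 cells (94.7%) of E60_2, and both were present in 83 cells (36.1%) and 22 cells (28.9%). PAX3 and DBX1 occurred together in 38 cells (16.5%) of E50_1 and 27 cells (35.5%) of E60_2. DBX1 and SHOX2 occurred together in 5 and 2 cells. In E50_1, 30 cells had no UMI of either PAX gene, and 22 of these had SHOX2 as their only patterning gene. Such cells were absent from E60_2, where the 4 cells without PAX3 or PAX7 had DBX1.

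The limits of the rule cut through continuous counts. In E50_1, 706 cells met every other criterion with 0 UMIs of the patterning genes, 125 with 1 UMI just outside the limit and 58 with 2 UMIs just inside it. In E60_2 these numbers were 51, 22 and 25. On the neurogenic side, 136 cells of E50_1 had 1 UMI and 83 had 2 UMIs, and in E60_2 138 cells had 1 UMI and 52 had 2 UMIs. EOMES, NEUROD2 or NEUROD6 left out a further 39 cells in E50_1, at a median of 13987 UMIs per cell, and 1 cell in E60_2.

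The depth of the cells was near that of their libraries. The median was 9468 UMIs and 3700 genes in E50_1 (5078 to 67050 UMIs), 5832 UMIs and 2670 genes in E60_2 (4023 to 46737) and 5360 UMIs in E60_1, where all cells of these libraries had medians of 8469, 5477 and 4251 UMIs. The doublet caller Scrublet marked 9 of the 230 cells (3.91%) and 3.03% of all cells in E50_1. It marked 0 cells in E60_1 and E60_2 and did not work there, so doublets were not removed. Of the 309 cells, 10 had a barcode that also occurred in another library.

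Groups of cells were set beside them. Other HES6+ cells met the criteria for the neurogenic genes, EOMES and NEUROD2 or NEUROD6 and had no UMI of the 4 patterning genes. Patterned glia and patterned neurons had at least 2 UMIs of the patterning genes and no UMI of HES6, and were parted by glial genes (SOX2, SOX9, HES1 and SLC1A3) and neuronal genes (DCX and STMN2). All tests used edgeR's quasi-likelihood test on the UMIs summed per class and library, with the library as a block and Benjamini-Hochberg adjustment over all genes. Only sums of at least 20 cells entered, so the HES6+ patterned cells were represented by E50_1 and E60_2. A gene was called at an adjusted p under 0.05.

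The regional genes that the rule did not use had low to moderate levels. OTX2, which marks forebrain and midbrain, was at 18.1 CPM in E50_1 (CI 13.4 to 23.9) and 59.0 CPM in E60_2 (CI 40.9 to 82.5). EN2, which marks the midbrain and the border to the hindbrain, was at 77.5 CPM (CI 67.4 to 88.8) and 41.7 CPM (CI 26.7 to 62.0). A UMI of OTX2 or EN2 was present in 122 of 230 cells (53.0%) of E50_1 and 38 of 76 cells of E60_2. In microglia such cells were 8 of 129 at a median of 11503 UMIs in E50_1 and 81 of 441 at 5420 UMIs in E60_2.

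Other midbrain genes were uneven. PAX5 reached 46.9 CPM and PAX2 36.2 CPM in E50_1, but in E60_2 they lay at 6.94 and 15.6 CPM, near the 5.15 and 17.3 CPM of microglia. TFAP2B, a transcription factor of dorsal neural cells, was at 83.8 and 39.9 CPM in E50_1 and E60_2, and MEIS1, a homeobox cofactor, at 236 and 101 CPM. EN1 had 0.369 CPM in E50_1 and 0 in E60_2, DMBX1 had 1.11 and 1.74 CPM, and POU4F1, a marker of midbrain neurons, had 0 UMIs in both. POU4F1 had 1 UMI and EN1 13 UMIs over all 10 libraries, so whether these genes can be counted in these files was not tested.

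Genes of other regions were found as well, part of them at the level of microglia. The 14 diencephalic genes summed to 243 CPM in E50_1 and 151 CPM in E60_2, against 149 and 135 CPM in microglia. Most of this was TCF7L2, a transcription factor of thalamic and other cells, at 124 and 123 CPM against 122 and 114 CPM in microglia, with a UMI in 51.3% of the HES6+ patterned cells and 56.6% of the microglia of E50_1. In the EOMES progenitors of E50_1 the 14 genes summed to 92.5 CPM, and TCF7L2 had a UMI in 24.8% of cells. Both lay below microglia. Whether microglia express TCF7L2 or hold it as free RNA only was not tested. LHX9 of thalamic and midbrain neurons was at 69.8 CPM in E50_1 against 11.9 CPM in microglia, and had 0 UMIs in E60_2. The telencephalic list of 18 genes summed to 123 CPM in E50_1, against 66.8 CPM in microglia, and to 38.2 CPM from 22 UMIs in E60_2. Its largest part in E50_1 was LHX2 at 64.6 CPM, against 16.7 CPM in microglia, and LHX2 had 0 UMIs in E60_2. TCF7L2, LHX9 and LHX2 thus lay above the 18.1 CPM of OTX2 in E50_1.

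Other markers were sparser. EMX2, a gene of the cortical anlage, was at 7.38 CPM in E50_1 and at 0 in E60_2. The 15 hindbrain genes, the HOX genes among them, summed to 13.3 CPM in E50_1 and 0 CPM in E60_2. SOX10 of the neural crest was at 8.86 and 6.94 CPM, against 4.18 and 6.63 CPM in microglia, and MYOD1 of muscle was at 0.369 and 0 CPM. RCVRN of photoreceptors was at 0.738 and 0 CPM.

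Against the other HES6+ cells, the question was what sets HES6+ cells with a patterning gene apart. The levels of several midbrain genes, and of the guidance genes EFNA5 and DCC, were higher in both libraries, but no gene passed the test. Of 11952 genes, 0 were called (0%), with 715 at an unadjusted p under 0.05. DESeq2 on the same sums called 15 genes, of which 10 were higher and 5 lower. The smallest adjusted p was 0.433.

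Among the 17 tested genes of the midbrain patterning list, which does not include the rule genes, 13 were higher in the HES6+ patterned cells of both libraries and 0 were lower in both. Over all genes tested, 31.4% were higher in both and 28.2% lower in both. The median log2 fold change of the list was 0.93, against -0.04 over all genes. EN2 was at 77.5 CPM against 29.7 CPM in E50_1 and at 41.7 against 8.95 CPM in E60_2, a log2 fold change of 1.51 ± 0.33 (SE, adjusted p = 0.456, edgeR). MEIS1 was at 236 against 88.2 CPM and at 101 against 30.7 CPM (1.39 ± 0.27, adjusted p = 0.456). OTX2 was at 18.1 against 9.27 CPM and at 59.0 against 10.2 CPM (1.73 ± 0.51, adjusted p = 0.565). None of these 3 differences passed the test, though both libraries had the same order.

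The telencephalic list lay on the other side, with 1 of its 9 tested genes higher in both libraries, 4 lower in both and a median log2 fold change of -1.82. EMX2 was at 7.38 against 30.7 CPM in E50_1 and at 0 against 1.28 CPM in E60_2. EMX1 was at 2.22 against 23.7 CPM in E50_1 and FEZF2, a gene of cortical projection neurons, at 4.06 against 28.9 CPM, and both had 0 UMIs in E60_2 on either side. LHX2, which is also found in midbrain neurons, was at 64.6 against 80.7 CPM in E50_1. Genes of GABAergic midbrain neurons had 6 of 13 higher in both libraries, 1 lower in both and a median of 0.15, and those of glutamatergic midbrain neurons 2 of 12 higher, 6 lower and a median of -0.72.

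**Figure D2:**
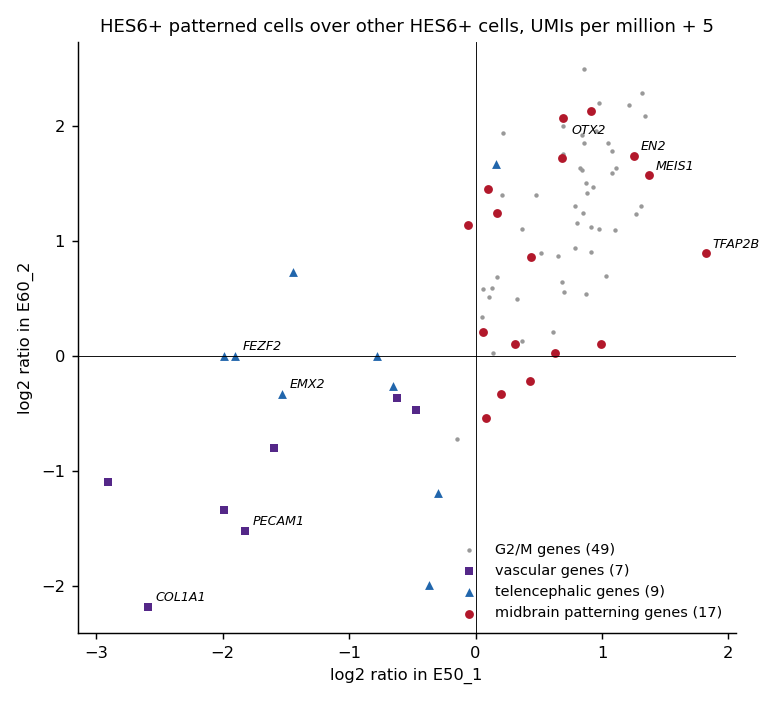
Each point is a gene, with the log2 ratio of HES6+ patterned cells to other HES6+ cells in E50_1 (x axis) and E60_2 (y axis), after adding 5 CPM to both levels. Of the midbrain patterning genes 13 of 17 and of the G2/M genes 48 of 49 lay above 0 in both libraries, and 7 of 7 vascular genes lay below 0 in both.

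Some guidance genes were abundant in the HES6+ patterned cells. EFNA5 (chromosome 2, 112533124 to 112821293), the ephrin ligand that is graded across the roof of the midbrain, was at 962 CPM against 175 CPM in E50_1 and at 1168 against 116 CPM in E60_2. Its log2 fold change was 2.70 ± 0.43 (SE, adjusted p = 0.433, edgeR). DCC, the netrin receptor, was at 658 against 331 CPM and at 943 against 156 CPM (1.78 ± 0.41, adjusted p = 0.456). The whole guidance list was not shifted, with 12 of 29 genes higher in both, 7 lower in both and a median of -0.13.

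EFNA5 was as abundant in the patterned glia, at 1212 CPM in E50_1 and 784 CPM in E60_2, and lay at 345 and 908 CPM in the patterned neurons, all without HES6. Further genes with a higher level in both libraries, chosen after their values were seen, were CYP26B1, which breaks down retinoic acid, and BOC, a co-receptor of Sonic hedgehog. CYP26B1 was at 37.7 against 6.01 CPM in E50_1 and 79.9 against 11.5 CPM in E60_2 (2.45 ± 0.37, adjusted p = 0.433). BOC was at 154 against 38.1 CPM and 137 against 16.6 CPM (2.34 ± 0.47, adjusted p = 0.456).

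Most genes of the G2/M list had higher levels in both libraries, none of them past the test. Of the 49 genes of the G2/M list, 48 were higher in the HES6+ patterned cells of both libraries than in the other HES6+ cells, with a median log2 fold change of 1.14 and 0 called. TOP2A, the DNA topoisomerase of dividing cells, was at 323 against 125 CPM in E50_1 and at 302 against 67.8 CPM in E60_2 (1.63 ± 0.60, adjusted p = 0.718). CDK1, the kinase that drives mitosis, was at 90.5 against 36.2 CPM and at 243 against 49.9 CPM. The S phase list had 21 of 37 genes higher in both, a median of 0.47 and 0 called. Over all genes tested, 31.4% were higher in both libraries.

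The levels of vascular genes lay in the other direction, with 0 called, where 28.2% of all genes were lower in both libraries. All 7 were lower in the HES6+ patterned cells of both libraries, and their sum was 178 CPM against 766 CPM in E50_1 and 641 against 1524 CPM in E60_2, with no gene of the list at 0. The 9 microglial genes summed to 79.7 against 320 CPM in E50_1 but to 819 against 332 CPM in E60_2, and the 5 erythroid genes to 1456 against 4356 and 15568 against 20123 CPM. In E60_1 the other HES6+ cells stood apart, with at least 3 UMIs of 12 cilia genes in 67.9% of them, against 28.8% in E50_1 and 13.7% in E60_2. The part of these contents in the differences was not tested. Without that sum of E60_1 the same test called 67 genes, of which 15 were higher and 52 lower, and without the whole library it called 32.

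The HES6+ patterned cells held uneven amounts of glial and neuronal genes. By the glial genes SOX2, SOX9, HES1 and SLC1A3 and the neuronal genes DCX and STMN2, with at least 2 UMIs as the limit, E50_1 held 46 cells with glial genes only, 70 with both, 101 with neuronal genes only (43.9%) and 13 with neither. E60_2 held 23, 18, 24 (31.6%) and 11 cells of these kinds. The 3 cells of E60_1 had neuronal genes only. Part of the microglia reached these limits too, and whether they did so by free RNA alone was not tested. In E50_1 31.8% of microglia had neuronal genes only, 4.65% glial genes only and 7.75% both, and in E60_2 these shares were 8.62%, 28.6% and 3.85%. Single cells near a limit are therefore not sorted reliably, and the glial share of E60_2 is near that of its microglia.

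The summed levels of these groups were set beside those of all microglia. The neuronal genes were at 3820 CPM in the cells with neuronal genes only and 1442 CPM in those with both in E50_1, against 341 CPM in microglia, and at 1102 and 830 CPM against 133 CPM in E60_2. The glial genes were at 1072 CPM in the cells with glial genes only in E50_1, against 71.6 CPM in microglia, and at 577 against 281 CPM in E60_2. These genes chose the groups but not the microglia, so a higher level in the groups is in part set by that choice. The sums are given as a description, and no distance from the background is read from them. The cells with neuronal genes only were the most numerous group in E50_1 and, by 24 cells to 23, in E60_2. Neuronal genes do not part them from progenitors, since EOMES progenitors of E50_1 had DCX in 80.3% and STMN2 in 67.4% of cells. Whether the cells with neuronal genes only were progenitors or young neurons was not tested.

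**Figure D3:**
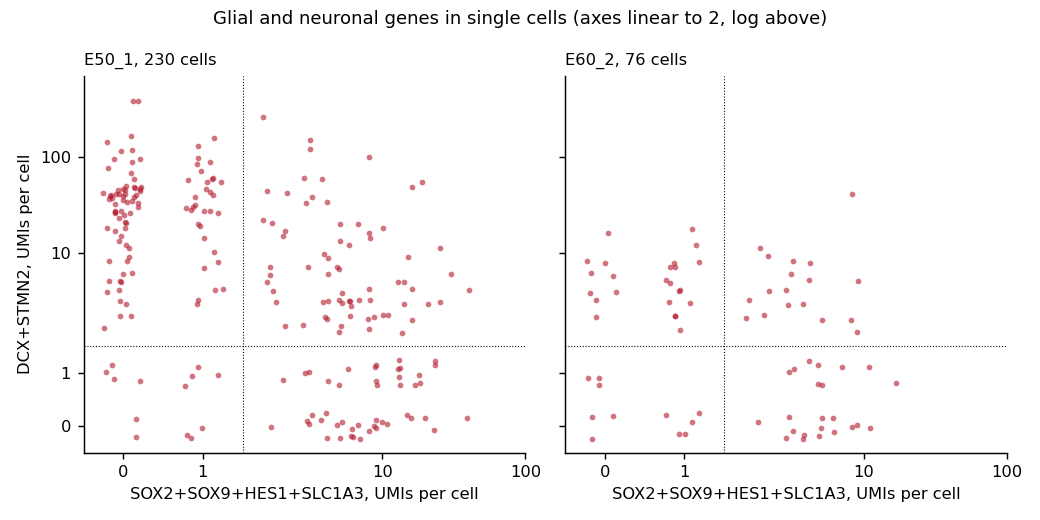
Each point is a HES6+ patterned cell of E50_1 (230 cells) or E60_2 (76 cells), with its UMIs of glial genes on the x axis and of neuronal genes on the y axis, both linear to 2 UMIs and logarithmic above, slightly jittered. Dotted lines mark the limit of 2 UMIs, and 70 cells of E50_1 and 18 of E60_2 lie past both limits.

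The levels of the patterning genes were uneven over these groups in E50_1. DBX1 was at 186 CPM in the cells with glial genes only, 112 CPM in those with both and 23.2 CPM in those with neuronal genes only. PAX3 followed the same order, at 248, 196 and 121 CPM. SHOX2 ran the other way, at 0, 20.4 and 99.3 CPM. PAX7 was at 111, 94.7 and 185 CPM and was thus highest in the cells with neuronal genes only.

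In E60_2 these orders were not all found. SHOX2 was again at 0 CPM in the cells with glial genes only, with 69.2 and 37.5 CPM in the other 2 groups. DBX1, however, was at 103, 89.9 and 225 CPM and PAX3 at 194, 263 and 337 CPM, both highest in the cells with neuronal genes only. Each group held 18 to 24 cells there. The group with glial genes only included cells of 46737, 39612 and 23122 UMIs, with 2, 4 and 2 of its 84 patterning UMIs. Its vascular genes summed to 1365 CPM, against 214 CPM with both and 75.0 CPM with neuronal genes only. CPM of summed cells weight the deepest cells most, here and below, and the orders without these cells were not computed.

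Some genes of the neurogenic sequence were lowest in the cells with glial genes only. The groups were parted by neuronal genes, so an order of other neuronal genes along them is in part set by that choice. NEUROD1, a proneural factor of differentiating neurons, was at 2.32, 34.6 and 51.3 CPM from glial only to both to neuronal only in E50_1, and at 0, 69.2 and 52.5 CPM in E60_2. TAGLN3, an early neuronal gene, was at 85.9, 213 and 460 CPM and at 68.9, 249 and 367 CPM. EBF2 (chromosome 14, 9816992 to 10027574), a transcription factor of migrating neurons, was at 55.7, 84.5 and 340 CPM and at 25.8, 131 and 105 CPM. NEUROD1 and EBF2 were thus highest in the cells with neuronal genes only in E50_1 but in those with both in E60_2. The Notch ligand DLL1, which committed progenitors present to their neighbours, was at 25.5, 30.6 and 8.27 CPM in E50_1 and at 21.5, 20.8 and 45.0 CPM in E60_2, so its order was not shared.

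HES6 itself was present in all groups, at 355, 447 and 359 CPM in E50_1 and 224, 387 and 442 CPM in E60_2. VIM, an intermediate filament of radial glia, was at 2980, 1478 and 143 CPM in E50_1 and at 1468, 671 and 435 CPM in E60_2. Cells with both glial and neuronal genes had a median of 10408 UMIs in E50_1, against 7860 UMIs in cells with glial genes only and 10092 UMIs in cells with neuronal genes only. Whether some of them were 2 cells in 1 droplet was not tested in E60_2, where the doublet caller did not work.

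**Figure D4:**
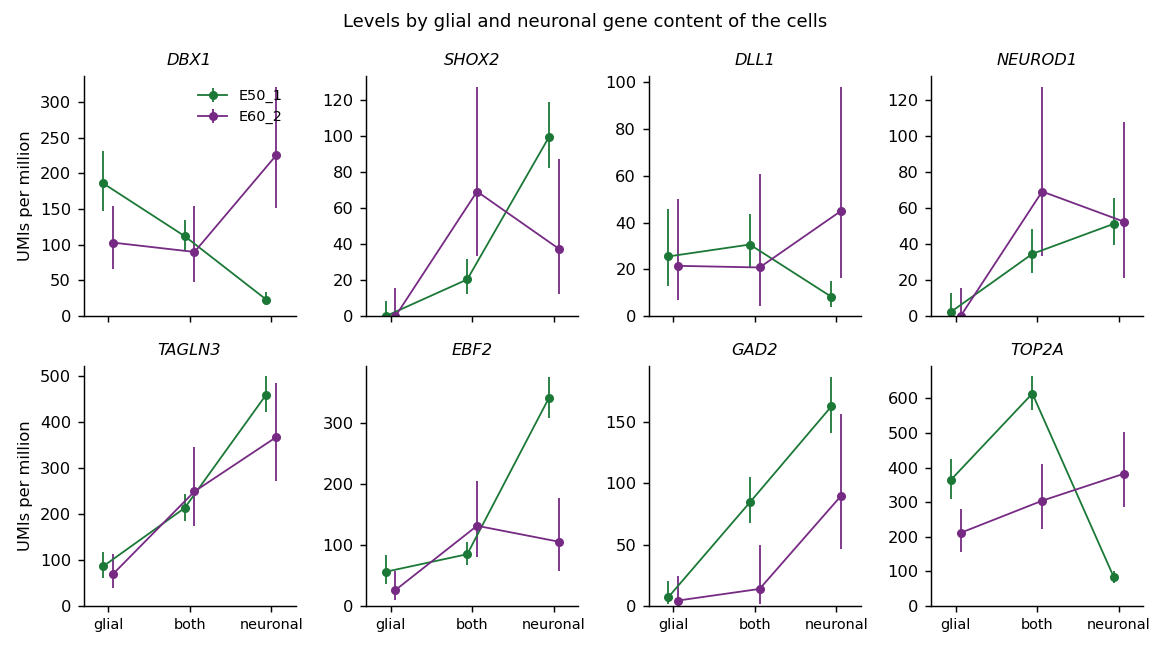
CPM of 8 genes in HES6+ patterned cells with glial genes only, with both and with neuronal genes only, in E50_1 (green) and E60_2 (purple), with exact Poisson 95% intervals. NEUROD1, TAGLN3 and GAD2 were lowest in the cells with glial genes only in both libraries, whereas DBX1 lay at 23.2 CPM in the neuronal group of E50_1 and at 225 CPM in that of E60_2.

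Cell cycle phases were called after every cell was thinned to 2000 UMIs, which left out no cell. S or G2/M was called in 33.0% of the HES6+ patterned cells of E50_1 (CI 27.0 to 39.5) and in 63.2% of those of E60_2 (CI 51.3 to 73.9). Patterned glia had 30.5% (CI 21.5 to 40.8) and 37.5% (CI 32.9 to 42.3), so in E50_1 the HES6+ patterned cells were near them. The share in microglia was 20.2% and 29.3%, and in patterned neurons 12.5% and 46.2%. Whether the microglia themselves divided was not tested, so their share is not taken as that of free RNA. Other HES6+ cells had 22.2% and 37.3%. In E50_1 these phases were called in 23 of the 46 cells with glial genes only, 37 of the 70 with both and 14 of the 101 with neuronal genes only (13.9%, CI 7.79 to 22.2).

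In E60_2 they were called in 14 of 23, 9 of 18 and 17 of 24 cells (70.8%, CI 48.9 to 87.4) of these groups, so the drop in cells with neuronal genes only was not found there. TOP2A gave the same picture, at 364, 614 and 81.9 CPM in E50_1 and at 211, 304 and 382 CPM in E60_2, against 38.2 and 116 CPM in microglia. With 1 library per stage holding enough cells, stage and brain cannot be told apart in this difference.

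The cells of E50_1 with PAX genes differed from those without PAX genes, most of which had SHOX2, in their transmitter genes. Genes of GABA synthesis and release (GAD1, GAD2 or SLC32A1) had a UMI in 77 of the 180 cells with at least 2 UMIs of PAX3 and PAX7 (42.8%, CI 35.4 to 50.4). They had a UMI in 3 of the 30 cells without PAX3 or PAX7 (10.0%, CI 2.11 to 26.5). The vesicular glutamate transporter SLC17A6 (chromosome 2, 37098983 to 37138935) had a UMI in 13 of 180 (7.22%, CI 3.90 to 12.0) and in 14 of 30 cells (46.7%, CI 28.3 to 65.7). The median depth of the groups was 9466 and 9074 UMIs. The groups were not matched for glial and neuronal genes, and the cells with glial genes only held no SHOX2. The part of that content in the difference was not tested. Microglia of the same library had a GABA gene in 26 of 129 cells (20.2%) and SLC17A6 in 8, at a median of 11503 UMIs, so the GABA genes of the cells without PAX genes and the SLC17A6 of the cells with them were at the level of background.

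Transcription factors divided in the same way. LHX9 (chromosome 10, 20742323 to 20764006), a LIM homeobox gene of glutamatergic midbrain and thalamic neurons, was present in 22 of 180 cells (12.2%) with PAX genes and in 18 of 30 without. LHX1 or LHX5, LIM homeobox genes of GABAergic and other neurons, were present in 50 of 180 (27.8%) and 1 of 30 (3.33%). GAD2 was at 132 CPM with PAX genes and 5.55 CPM without, and TFAP2B at 47.5 and 214 CPM. EN2 had a UMI in 81 of 180 cells with PAX genes and 16 of 30 without, and OTX2 was at 17.6 and 16.7 CPM.

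SHOX2 alone gave a similar division, which is not a separate result. By the rule, cells without PAX genes hold SHOX2 or DBX1, and 22 of those 30 cells had SHOX2 as their only patterning gene. Of the 45 cells with SHOX2, 27 had SLC17A6 (CI 44.3 to 74.3), 28 had LHX9 (62.2%) and 7 had a GABA gene (15.6%). Of the 185 cells without SHOX2, 8 had SLC17A6 (4.32%, CI 1.89 to 8.34), 21 had LHX9 (11.4%) and 75 had a GABA gene (40.5%). The 52 cells with DBX1 had few of either, with a GABA gene in 5 (9.62%) and SLC17A6 in 1 (1.92%). Over all 230 cells, 82 had a GABA gene, 35 had SLC17A6, 10 had both and 123 (53.5%) had neither.

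The same division was present in the patterned neurons of E50_1, which have no HES6 and are other cells of the same library. Of 25 such neurons with at least 2 UMIs of the PAX genes, 24 had a GABA gene (96.0%, CI 79.6 to 99.9), 1 had SLC17A6 and 1 had LHX9. Of 13 neurons without PAX genes, 1 had a GABA gene, 9 had SLC17A6 (69.2%, CI 38.6 to 90.9) and 11 had LHX9 (84.6%). All of these cells came from 1 library, so the division has no replicate check and no test was made.

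**Figure D5:**
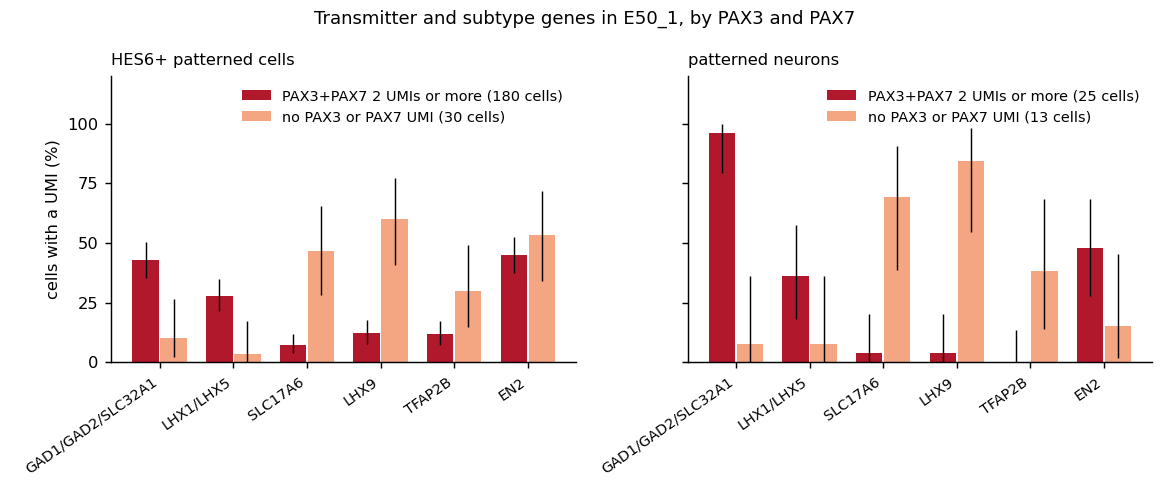
Share of cells (%) of E50_1 with a UMI of GABA genes (GAD1, GAD2 or SLC32A1), LHX1 or LHX5, SLC17A6, LHX9, TFAP2B and EN2, in HES6+ patterned cells (left) and patterned neurons (right), for cells with at least 2 UMIs of PAX3 and PAX7 (dark) and with none (light), with exact 95% intervals. GABA genes were in 42.8% and 96.0% of the cells with PAX genes and SLC17A6 in 46.7% and 69.2% of those without.

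In E60_2 the cells without PAX genes were 4, and the division could not be examined. A GABA gene was found in 16 of 76 cells (21.1%, CI 12.5 to 31.9), against 9.52% of microglia. SLC17A6 was found in 1 cell (1.32%) against 1.59% of microglia, and LHX9 in 0 of 76 cells, for which the upper CI bound was 4.74%. GATA2 or GATA3, zinc finger factors of midbrain GABAergic neurons, were found in 12 cells (15.8%) against 4.76% of microglia, and TFAP2B in 14 cells (18.4%) against 2.27%. HELT, a factor of GABAergic progenitors in the midbrain, was found in 4 cells of E60_2 and 5 cells of E50_1, where 1 cell held 23 of its 43 UMIs.

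Against patterned glia, the cells were compared with glia-like cells of the same regional genes. Of 11946 genes 26 were called (0.218%), of which 24 were higher (0.201%) and 2 lower (0.0167%) in the HES6+ patterned cells, and DESeq2 called 97. The patterned glia were picked for glial genes and for at most 1 UMI of DCX and STMN2, while the HES6+ patterned cells could hold both. The direction of these calls was largely set by that choice, and nothing is read from it.

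Of the genes called, EBF2 was at 199 CPM against 5.17 CPM in E50_1 and at 78.1 against 4.55 CPM in E60_2, a log2 fold change of 4.39 ± 0.52 (SE, adjusted p = 0.0117, edgeR). The others that led by size were SCG2 of secretory granules (5.66 ± 0.83), the calcium sensor HPCA (5.49 ± 0.82), the synuclein SNCB (4.44 ± 0.51), the neurofilament genes NEFL (4.16 ± 0.48) and INA (3.91 ± 0.52), the synaptotagmin SYT4 (3.70 ± 0.58) and SMIM17 (3.65 ± 0.42), with adjusted p between 0.0117 and 0.0455. The 2 lower genes were SLC6A11, a GABA transporter of astrocytes, at 40.2 against 173 CPM in E50_1 and 22.6 against 77.7 CPM in E60_2 (-2.03 ± 0.29, adjusted p = 0.0296), and GATM, an enzyme of creatine synthesis, at 54.3 against 211 CPM and 90.3 against 300 CPM (-1.96 ± 0.31, adjusted p = 0.0455). The proneural list had 4 of 24 genes called higher and the neuronal cytoskeleton list 5 of 21, where 0.201% of all genes were called higher. These counts too were largely set by the choice of the cells, and nothing is read from them. No call remained when E50_1 or E60_2 was left out.

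A comparison free of these glial and neuronal limits was added after the data were seen, with the cells that passed the patterning criterion and had no UMI of HES6, whatever their other genes. Of 13287 genes, 0 were called (0%), with 618 at an unadjusted p under 0.05 and 13 called by DESeq2. In the proneural list 21 of 25 genes were higher in the HES6+ patterned cells of both libraries, 0 were lower in both and the median log2 fold change was 0.83. Over all genes 30.4% were higher in both and the median was 0.00. EBF2 was at 199 against 83.3 CPM in E50_1 and 78.1 against 13.7 CPM in E60_2 (1.79 ± 0.35, adjusted p = 0.716), NEUROD1 at 35.8 against 3.70 CPM and 29.5 against 4.41 CPM (2.11 ± 0.78, adjusted p = 0.990).

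The Notch pathway as a whole was mixed, with 11 of 26 genes higher in both libraries, 8 lower in both and a median of 0.08. DLL1 was at 19.2 against 9.25 CPM in E50_1 and 31.2 against 15.6 CPM in E60_2 (1.01 ± 0.35, adjusted p = 0.889, edgeR). MFNG, a sugar transferase that modifies Notch receptors, was at 22.2 against 4.93 CPM and 27.8 against 8.36 CPM (1.82 ± 0.37, adjusted p = 0.733), but microglia held 43.6 and 28.7 CPM of it. The radial glia list had 16 of 20 genes lower in both, where 26.0% of all genes were lower in both, with a median of -0.88. SLC1A3, the glial glutamate transporter, was at 145 against 440 CPM and 214 against 577 CPM (-1.36 ± 0.34, adjusted p = 0.804). Of the G2/M list, 45 of 49 genes were higher in both.

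Against patterned neurons, 0 of 11946 genes were called (0%), with 486 at an unadjusted p under 0.05, 0 called by DESeq2 and 0.980 as the smallest adjusted p. Radial glia genes were higher in both libraries for 12 of 16 and lower for 0, where 31.2% of all genes were higher in both. Neuronal cytoskeleton genes were lower in both for 19 of 21, where 23.7% of all genes were lower in both. These neurons were picked for DCX and STMN2 with at most 1 UMI of the glial genes, so this order too follows the choice of the cells. CCND2, a cyclin of cycling progenitors chosen after its values were seen, was at 232 against 27.9 CPM in E50_1 and 168 against 88.0 CPM in E60_2 (1.84 ± 0.51, adjusted p = 0.980). LHX9 had 69.8 against 270 CPM in E50_1 and 0 against 5 UMIs in E60_2.

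EOMES progenitors, the HES6+ cells of the cortical lineage with at least 1 UMI of EOMES and none of the patterning genes, were numerous in E50_1 alone (218 cells, against 2 in E60_2), so no comparison was fitted and the levels of that library are set side by side. HES6 was at 403 CPM in the HES6+ patterned cells and 1045 CPM in the EOMES progenitors. IGFBPL1, a gene of newborn neurons, was at 715 and 2794 CPM and NEUROD4, a proneural factor, at 16.6 and 84.4 CPM. EMX2 was at 7.38 and 91.0 CPM, while EN2 was at 77.5 and 10.6 CPM and OTX2 at 18.1 and 0.503 CPM. The midbrain patterning list of 38 genes, however, summed to 990 and 906 CPM, so its sum did not part the 2 classes as EN2 and OTX2 did. EFNA5 was at 962 and 50.3 CPM and its receptor EPHA3 at 76.1 and 782 CPM, while the guidance list of 32 genes summed to 3585 and 3938 CPM. GAD2 was at 105 and 15.1 CPM, and S or G2/M was called in 33.0% and 38.5% of the cells.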

How the data were processed

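The authors deposited raw UMI counts of 22452 genes per cell for 10 libraries, made with Cell Ranger (version 2.20 in the submitters' processing notes) on Sscrofa11.1 with introns counted. Each library held 2336865 to 55755512 UMIs. Libraries were grouped by stage and fraction from their titles, and classes of cells by the UMI limits of the report. The cells and gene lists were chosen with earlier results of these data known. UMIs were summed per class and library, and sums of at least 20 cells were tested with edgeR 4.0.16 (TMM, filterByExpr with a minimum count of 10, library as a block, quasi-likelihood test) with Benjamini-Hochberg adjustment over all genes. Genes that defined either class were not tested. The fits had 4 residual degrees of freedom, or 3 for the added comparison. Leaving out a library leaves the cells with 1 sum, which is then assumed to vary like the other classes. DESeq2 1.42.0, other filters, scalings and limits were alternatives. Levels are CPM with exact Poisson 95% intervals, and shares have exact Clopper-Pearson intervals. Where no cell was found, the limit printed is that of 3 cells in the library. For phases each cell was thinned to 2000 UMIs and scored with scanpy 1.11.5. Named genes were the 8 largest called changes in each direction with the same sign in both libraries and at least 30 UMIs, plus genes of the lists that were called or had the most UMIs, and further genes of these lists picked for their known role with values in view, or marked as chosen after their values were seen. The lists also held diencephalic, oligodendroglial, WNT, cerebellar and photoreceptor genes. On simulated sums of the comparison with other HES6+ cells (11491 genes), 78 of 198 changed genes (39.4%) and 4 unchanged ones were called. The changes were 2-fold or 4-fold, up or down, on means without other differences between the classes. This share is thus not the power of the real comparison. Coordinates are from RefSeq on Sscrofa11.1. The library is the unit behind every p-value, and 1 library can pool several brains. A gene of the marker lists is not reported here.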

Additional observations from a re-analysis of the deposited data

Results flagged for a closer look

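Several genes had opposite directions in E50_1 and E60_2 when HES6+ patterned cells were set against other HES6+ cells, by at least 2-fold in each library. These differences between the libraries were not tested, and each rests on 1 library per stage. For GATA3 the ratio of the levels was 0.397 in E50_1 (13.3 against 33.4 CPM) and 8.14 in E60_2 (20.8 against 2.56 CPM). TFAP2D, a transcription factor of midbrain neurons, had ratios of 0.346 and 3.26, and UNC5D, a netrin receptor, had 0.414 and 2.16. The other 6 were microglial genes, which were low in the HES6+ patterned cells of E50_1 and high in those of E60_2. Their ratios were 0.0743 and 2.02 for AIF1, 0.282 and 2.23 for C1QA, 0.187 and 2.93 for C1QB, 0.177 and 2.67 for C1QC, 0.368 and 2.55 for CX3CR1, and 0.465 and 2.60 for P2RY12. The 6 microglia of E60_2 that passed the rule stayed among its 76 cells. In E60_2 the 11 cells with neither glial nor neuronal genes held 222 of the 472 UMIs of the 9 microglial genes. This was 3370 CPM, against 379 to 780 CPM in the other groups. The part of these cells in the ratios was not tested.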

How the results depend on the processing

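The count of genes called rests on few sums and moved with the processing. Against other HES6+ cells it was 0 with other size factors, without the library as a replicate block, with PAX3 and PAX7 alone as patterning genes and without marked doublets, but 15 with DESeq2, 57 without the filter on low counts, 520 with only the 2 classes in the fit and 23 with at least 3 patterning UMIs, and it ranged from 0 to 32 when 1 library was left out. Against patterned glia the 26 genes became 97 with DESeq2, 167 without the filter, 719 with only the 2 classes, 16 with at least 3 patterning UMIs, 8 with at least 3 neurogenic UMIs, 15 with PAX3 and PAX7 alone and 0 with no replicate block, and they ranged from 0 to 42 when 1 library was left out. The 42 were found without E60_1 and included all 26, and the count was 0 without E50_1 or without E60_2. Without the E60_1 sum of other HES6+ cells, an alternative chosen after seeing the data, the counts were 67 against other HES6+ cells and 56 against patterned glia. Against patterned neurons the count was 0 except for 2 without the filter and 162 with only the 2 classes. The comparison with all patterned cells without HES6 gave 0 except for 13 with DESeq2 and 4 without the filter. The 10 named genes kept their direction under each alternative that tested them, but HPCA, INA and SYT4 were not tested with only the 2 classes. The number of HES6+ patterned cells was 309, and it was 172 with at least 3 neurogenic UMIs and 60 after each cell was thinned to 3000 UMIs, after which no comparison was fitted, since E60_2 then held 16 of them. By the limit of 20 cells in both classes of 2 libraries, the comparison with other HES6+ cells was not run with at least 3 neurogenic UMIs, nor that with patterned neurons with at least 3 patterning UMIs. The causes of these moves were not tested, other than that fewer cells or sums enter some fits. By the same limit the comparisons with EOMES progenitors, and between cells with and without PAX genes, were not run, since E50_1 alone held 20 cells of each, and a fit on that 1 library was not tried. Depth limits single cells to a few UMIs of each patterning gene.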

Other observations

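Genes of the cilium, a list of 12 chosen after the data were seen, had at least 3 UMIs in 73 of the 230 HES6+ patterned cells of E50_1 (31.7%) and in 14 of the 76 of E60_2 (18.4%). In E50_1 these were 19 of the 46 cells with glial genes only, 29 of the 70 with both and 24 of the 101 with neuronal genes only. Patterned glia held such cells at 41.1% in E50_1 and 46.1% in E60_2.

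The few cells at day 70 that met the same rule were 3 of the 15 cells of E70_1 and 1 of the 12 cells of E70_2 that had at least 2 UMIs of the patterning genes. E70_2 shared a sequencing pool with E50_1 and E70_1 with E60_1, and whether these cells belong to their labelled library was not tested.

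Lists of other tissues and pathways, against other HES6+ cells, gave no call. Among all genes of this comparison 31.4% were higher in both libraries and 28.2% lower in both. WNT pathway genes were higher in both libraries for 9 of 23 and lower for 3, with a median log2 fold change of 0.08. Diencephalic genes were higher for 1 of 6 and lower for 2 (median -0.22), cerebellar genes higher for 1 of 3 and lower for 1 (median 0.17), and oligodendroglial genes lower for 4 of 4 (median -1.71). Of the photoreceptor list only OTX2 could be tested.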
